A study of Rattus norvegicus with 3 samples.

Results

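The condyle of the jaw joint carries cartilage on bone, and when its cells are dissociated, chondrocytes, bone-forming cells and fibroblasts can fall into 1 cluster. In each of 3 single-cell libraries 1 cluster held the cartilage collagen gene Col2a1, and it is described here from its RNA counts. The libraries came from wild-type Sprague Dawley rats: sham rats given Vector AAV, rats with unilateral anterior crossbite (UAC), which loads the joint abnormally, given Vector AAV, and UAC rats given miR-330 AAV. The adeno-associated virus (AAV) was injected into the temporomandibular joint and the rats were kept for 8 weeks, and each library pooled 16 condyles of 8 rats. The labels call the last library the UAC treatment group and do not name its virus, so its place as the miR-330 group rests on that title and the design text. Sex and age are not given in the labels. The cluster was chosen by its mean count of Col2a1, the highest of its library, 123 in cluster 12 of 15 in the sham library, 101 in cluster 16 of 18 in the UAC library and 149 in cluster 17 of 19 in the UAC + miR-330 library, so it stands for 3 of 52 clusters. The next-highest cluster had a mean of 4.08, 0.359 and 4.74 in the same order.

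Growth cartilage of the condyle is renewed by dividing cells that turn into chondrocytes, lay down collagen II and aggrecan, and then enlarge. Enlarging (hypertrophic) chondrocytes make collagen X and Indian hedgehog, mineralize their matrix and are replaced by bone. Fibroblast-like cells cover the surface, where lubricin is made, and osteoblasts lie beneath, so a mixture of these cells holds several programs that can change apart from each other.

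The cluster held 9019928 of the 77668015 unique molecular identifiers (UMIs, counted RNA molecules) of the sham library, or 11.6%, 5980171 of 92629658 (6.46%) in UAC and 5885282 of 97255383 (6.05%) in UAC + miR-330. It ranked 3, 6 and 6 by UMIs among the clusters of its library, and its share was lower in both UAC libraries. Fewer cells and less RNA per cell cannot be told apart from these sums. The cluster is mixed: chondrocyte markers summed to 64330, 51500 and 66700 UMIs in each 1000000 of its UMIs, osteogenic markers to 69380, 58870 and 59850 and fibroblast markers to 10340, 9794 and 7401. The cluster had UMIs on 15694, 15553 and 15334 genes. Its 20 most abundant genes took 23.7%, 20.2% and 20.7% of its UMIs, and mitochondrial genes took 4.34%, 4.39% and 4.30%.

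Levels are UMIs per 1000000 UMIs of the cluster (CPM), always given in the order sham, UAC, UAC + miR-330. A gene is called higher or lower where 2 levels differ at least 1.5-fold with exact Poisson 95% intervals apart, provided the gene has 100 or more UMIs over both libraries. A gene of low level can reach this minimum only through the library where it is high, and its ratio is then given as a value only. This holds for every such gene below, also where it is not repeated. The intervals cover counting error only, and with 1 library per group no difference has a replicate check. Between UAC and sham 688 of 8617 tested genes were called (7.98%), 617 higher (7.16%) and 71 lower (0.824%). Between UAC + miR-330 and UAC 1041 of 8243 were called (12.6%), 576 higher (6.99%) and 465 lower (5.64%), and between UAC + miR-330 and sham 1646 of 8561 (19.2%), 1418 higher (16.6%) and 228 lower (2.66%). The median log2 ratio of all tested genes was 0.12 for UAC against sham, 0.02 for UAC + miR-330 against UAC and 0.15 for UAC + miR-330 against sham, and the changes below are to be read against these shifts. Taking the deposited mean counts as they stand would add 0.20, 0.24 and 0.43 to the log2 ratios of the 3 comparisons. Counts for the lists below are to be read against the called shares of all genes given here.

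The excess of higher genes depends on that scale. Of the genes called between UAC and sham 89.7% were higher, and 74.3% were once ratios were centred on the median of all tested genes, or 72.7% once centred within bins of gene span. Of those called between UAC + miR-330 and UAC 55.3% were higher, against 87.4% with deposited means, 46.1% once centred within bins of gene span and 43.0% at a fold of 2, so the direction of this excess turns with the settings. Against sham the UAC + miR-330 library had 86.1% of its called genes higher, and 60.3% or 60.6% after the same 2 centrings and 99.4% with deposited means. The comparisons of the UAC library with sham and of UAC + miR-330 with UAC share the UAC library, so their values are placed side by side and opposite signs in them are not 2 separate findings.

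Genes at least 4 times as high in the cluster as in the other clusters were counted apart (enriched genes). The level is pooled over the 3 libraries, so a gene can enter this set through the library where it is high, and the difference in call rate from all genes was not tested. Of 1505 such genes tested between UAC and sham 194 were called (12.9%), 153 higher (10.2%) and 41 lower (2.72%). Of 1466 tested between UAC + miR-330 and UAC 310 were called (21.1%), 219 higher (14.9%) and 91 lower (6.21%). Their median log2 ratios were 0.05 and 0.11.

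Of the 6 marker genes of the cluster, Col2a1 stood at 27180.0, 19379 and 24344 CPM, Acan, the gene of the large proteoglycan aggrecan, at 1638, 1471 and 1949 CPM, and Col1a1, the main collagen of bone, at 57395, 46960.0 and 49062 CPM. None of the 3 genes was called in either comparison with UAC on this scale, though Acan was higher with miR-330 with deposited means. Col1a1 was the most abundant gene of the cluster in every library. Sox9, the transcription factor that makes a cell a chondrocyte, stood at 357, 316 and 512 CPM and rose by a log2 of 0.70 from UAC to UAC + miR-330. Ibsp, which codes for the bone sialoprotein of mineralizing matrix, stood at 778, 678 and 1357 CPM and rose by 1.00. Dcn, the fibroblast proteoglycan decorin, had its highest level in UAC, 414, 561 and 449.6 CPM, with no call. None of the 6 was called between UAC and sham on the CPM scale. There Col2a1 was lower after centring on the median of all genes or within span bins, and Dcn was higher with deposited means.

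**Figure D1:**
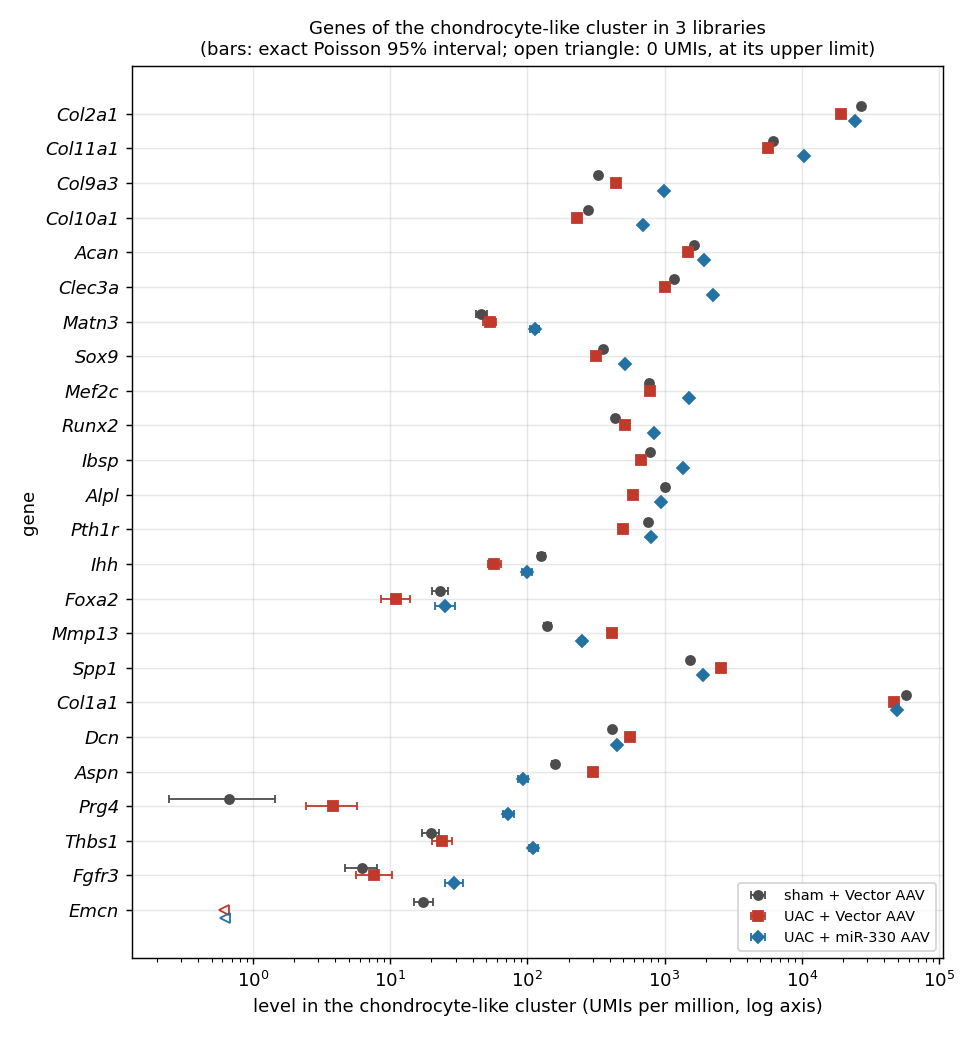
Levels of 24 genes of the chondrocyte-like cluster in CPM (log axis), 1 library per group (sham, UAC, and UAC with miR-330), with exact Poisson 95% intervals as bars and open triangles for 0 UMIs. Col10a1, Ibsp, Sox9 and Mef2c are highest with miR-330, and Ihh, Alpl and Pth1r are lowest in UAC.

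Collagens of cartilage differed by type. The fibril-nucleating collagen gene Col11a1 stood at 6162, 5713 and 10340.0 CPM, not called between UAC and sham and higher with miR-330 (log2 ratio 0.86). Col9a3, a chain of the collagen that coats the fibril, stood at 329, 439 and 999 CPM and rose by 1.19. The collagen of hypertrophic cartilage, Col10a1, stood at 279, 232 and 699 CPM and rose by 1.59, the largest rise of the 8 cartilage collagens. Of these 8 genes 4 were higher with miR-330 (Col9a3, Col10a1, Col11a1 and Col27a1) and 0 lower, or 6 and 0 with deposited means and 2 and 0 within span bins, where Col11a1 was not called, with a median log2 ratio of 0.68 against 0.02 for all tested genes. Between UAC and sham 0 of the 8 were called (1 higher with deposited means, 1 lower after either centring) and their median was -0.21 against 0.12. Col9a3 and Col10a1 were higher with miR-330 under every scale, and Col2a1 was not called in that comparison. In the other clusters the medians of the 8 genes were -1.14 for UAC against sham and 0.84 with miR-330. The rise with miR-330 was thus not limited to the cluster, although it held a median of 95.8% of their UMIs.

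Fibrous collagens were called in both directions with miR-330, but in 1 with deposited means. Col1a2, the partner chain of Col1a1 in collagen I, stood at 2348, 1927 and 1173 CPM and fell by 0.72 on the log2 scale, a call lost with deposited means. Col5a1, which sets the width of collagen I fibrils, stood at 148, 176 and 394 CPM and rose by 1.16, and Col24a1, a minor fibrillar collagen of bone, stood at 110.1, 105 and 258 CPM and rose by 1.30. Of 16 tested genes for fibrous and bone collagens 4 were higher and 1 lower with miR-330 (median 0.05; 7 and 0 with deposited means, 3 and 2 within span bins), and 3 were higher and 0 lower in UAC against sham (median 0.07). In the latter comparison Col14a1, a collagen of the fibril surface, rose, at 8.76, 24.7 and 34.2 CPM, a log2 ratio of 1.49.

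Some proteins that fill the cartilage matrix were higher with miR-330. Clec3a, a cartilage lectin, stood at 1172, 1006 and 2268 CPM and rose by 1.17 with miR-330. Matn3, which links collagen IX to the network, stood at 46.3, 53.3 and 113 CPM and rose by 1.08, and Susd5, which binds hyaluronan, stood at 67.7, 68.4 and 166 CPM and rose by 1.28. None of the 3 was called between UAC and sham. Snorc, a small proteoglycan of chondrocytes, stood at 6749.9, 4397 and 5619.6 CPM and fell by 0.62 from sham to UAC, the only chondrocyte marker called in that comparison and not called with deposited means. Of 20 tested genes for aggrecan and cartilage matrix proteins 4 were higher and 0 lower with miR-330 (median 0.29; 10 and 0 with deposited means), and 1 was higher and 1 lower in UAC against sham (median 0.04; 3 and 0 with deposited means, 0 and 2 after either centring). Of 18 tested chondrocyte markers 6 were higher and 0 lower with miR-330 (median 0.48; 13 and 0 with deposited means), and 0 higher and 1 lower in UAC against sham (median -0.14; 1 and 0 with deposited means).

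Some enzymes that build sugar chains or modify collagens were called. Xylt1, which starts the chains of aggrecan, stood at 80.4, 60.4 and 133 CPM and rose by 1.14 with miR-330. Has2, which makes hyaluronan, stood at 49.7, 44.0 and 85.1 CPM and rose by 0.95. Both were at their lowest in UAC, but neither was called against sham there. Chst3, which adds sulphate to chondroitin, stood at 13.5, 5.85 and 7.82 CPM and fell by 1.19 from sham to UAC. P3h2, which hydroxylates proline in collagen, stood at 273, 249 and 472 CPM and rose by 0.92 with miR-330. Of 24 genes for glycosaminoglycan synthesis and sulphation 5 were higher and 0 lower with miR-330 (median 0.21), or 3 and 1 within span bins and 10 and 0 with deposited means. Of 34 for collagen modification and secretion 4 were higher and 0 lower (median 0.06), or 2 and 0 within span bins and 8 and 0 with deposited means. Of all tested genes 12.6% were called in that comparison, near the share of the collagen modification list, whose count is not read as a change of the list.

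Some genes of chondrocyte hypertrophy and mineralization were lowest in UAC. Ihh, the hedgehog signal of prehypertrophic cells, stood at 127, 57.5 and 99.7 CPM, fell by 1.14 from sham to UAC and rose by 0.79 from UAC to UAC + miR-330. Alpl, the phosphatase that lets matrix mineralize, stood at 1015, 591 and 939.8 CPM, with log2 ratios of -0.78 and 0.67, the second not called once centred within span bins. Pth1r, the receptor that holds chondrocytes back from hypertrophy, stood at 755, 501 and 794 CPM, with -0.59 and 0.66, the first not called with deposited means. In all 3 genes the UAC library was lowest, with its interval apart from the others.

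The transcription factors of the same program were split. Foxa2, which switches on collagen X, stood at 23.2, 11.0 and 25.3 CPM and changed by -1.06 and 1.19, as Ihh did. Mef2c, which opens the hypertrophic program, stood at 765, 779.9 and 1507 CPM and Runx2, which drives both hypertrophy and osteoblasts, at 435, 517 and 839 CPM. Neither of the last 2 was called between UAC and sham, and both rose with miR-330, by 0.95 and 0.70, though Runx2 was not called within span bins. Smpd3, an enzyme needed for mineralization, stood at 836, 611 and 1041 CPM and rose by 0.77.

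Other genes of the program went the other way in UAC. Mmp13, the collagenase of terminal hypertrophy, stood at 140.2, 411 and 251 CPM, a rise of 1.55 against sham and a fall of 0.71 with miR-330, the fall not called with deposited means. Spp1, the osteopontin gene, stood at 1542, 2573 and 1914 CPM, a rise of 0.74 and then no call. Of 25 tested hypertrophy and mineralization genes 2 were higher (Mmp13 and Spp1) and 5 lower (Ihh, Foxa2, Alpl, Pth1r and Tgm2) in UAC against sham, with a median of -0.14, and deposited means would make this 3 higher and 3 lower. With miR-330 against UAC 11 were higher and 1 lower (Mmp13), with a median of 0.47, and 8 were higher and 1 lower once ratios were centred within bins of gene span, or 15 and 0 with deposited means. The hypertrophy genes were therefore not 1 block: 18 of the 25 were not called in UAC against sham, and the 7 called went both ways.

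Hedgehog signalling shared this pattern only in part. Hhat, which attaches the lipid that hedgehog needs, stood at 11.2, 6.19 and 17.0 CPM, with log2 ratios of -0.84 and 1.45, the first not called with deposited means. Hhat reaches the UMI minimum only through the library where it is high, so both are given as values only. Gli1, a target gene that reports hedgehog response, stood at 14.9, 16.2 and 8.16 CPM and fell by 0.98 with miR-330, opposite to Ihh. The receptor gene Ptch1, also a target, stood at 312, 324 and 435 CPM, with no call on the CPM scale but higher with miR-330 with deposited means. With miR-330 the ligand gene Ihh thus rose while the response gene Gli1 fell, and the level of Ptch1 went in the direction of Ihh. Of 14 tested hedgehog and PTHrP genes 2 were higher and 3 lower in UAC against sham (2 and 1 with deposited means), and 7 higher and 1 lower with miR-330 (4 and 1 centred within span bins, 9 and 1 with deposited means). Their medians were 0.08 and 0.57, and in the other clusters -0.13 and 0.53.

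Some further chondrocyte regulators rose with miR-330. Trps1, a repressor in growth plate cells, stood at 1045, 1009.8 and 1910.4 CPM and rose by 0.92, and Zbtb20, which promotes terminal maturation, stood at 548, 508 and 948 CPM and rose by 0.90. Erg, which keeps articular chondrocytes from maturing, stood at 13.9, 8.03 and 12.9 CPM and fell by 0.78 from sham to UAC, a call lost with deposited means. Pitx1, a factor of hindlimb and jaw, stood at 9.98, 22.6 and 26.3 CPM and rose by 1.18 there. Of 29 tested chondrogenic transcription factors 7 were higher and 2 lower with miR-330, with a median of 0.22. That became 4 and 2 within span bins and 12 and 1 with deposited means. In UAC against sham 5 were higher and 2 lower (median 0.13), or 3 and 2 after either centring. In the other clusters the medians of the list were 0.30 with miR-330 and 0.21 in UAC against sham.

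Osteoblast genes were called in both directions. Bglap, the osteocalcin gene of mature osteoblasts, stood at 9537, 9876 and 7393 CPM with no call, and Sparc, an abundant non-collagen protein of bone matrix, at 36634, 28315 and 29757 CPM, also with none. Dmp1, a gene of osteocytes, stood at 27.1, 61.2 and 32.8 CPM, a rise of 1.18 and then a fall of 0.90. Ifitm5, which osteoblasts use in mineralization, stood at 40.5, 25.1 and 27.4 CPM and fell by 0.69 from sham to UAC, a call lost with deposited means. Of 28 tested osteoblast and osteocyte genes 2 were higher and 3 lower in UAC against sham (median 0.03; 4 and 2 with deposited means) and 4 higher and 2 lower with miR-330 (median 0.07; 7 and 1 with deposited means, 2 and 2 within span bins).

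Several fibroblast and tendon genes were higher in UAC, although the sum of the fibroblast markers, led by Col3a1, was not. Mural and smooth muscle markers were also highest in UAC, with sums of 31.15, 70.73 and 52.16 CPM. Aspn, the proteoglycan asporin that binds TGF-beta, stood at 159.8, 299.8 and 93.8 CPM, a rise of 0.91 and a fall of 1.68 with miR-330, the largest fall among the small leucine-rich proteoglycans. Thy1, a surface marker of fibroblasts, stood at 34.9, 57.5 and 34.0 CPM, with log2 ratios of 0.72 and -0.76, the second not called with deposited means. Eln, the elastin gene, stood at 9.76, 22.4 and 11.4 CPM, with 1.20 and -0.97. For these 3 genes UAC was the highest library by counts whose intervals lie apart.

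Scx, the tendon transcription factor, stood at 13.7, 17.7 and 10.0 CPM and fell by 0.82 with miR-330, a call lost with deposited means or span bins, and Ecm1, a matrix glycoprotein, stood at 191, 192 and 101 CPM and fell by 0.92. Of 11 tested fibroblast markers 4 were higher and 0 lower in UAC against sham (median 0.44; 6 and 0 with deposited means). With miR-330 0 were higher and 3 lower (median -0.40), a direction that deposited means turn round to 1 higher and 0 lower. Tendon and entheseal genes, 15 tested, gave 3 higher and 0 lower (median 0.37; 1 and 0 within span bins, 6 and 0 with deposited means), then 0 higher and 3 lower (median -0.23). Of 8 tested small leucine-rich proteoglycans 1 was higher and 0 lower in UAC, and 0 higher and 2 lower with miR-330, with medians of 0.07 and -0.32; with deposited means the counts were 3 and 0, then 0 and 1.

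Of the surface genes only Prg4 was called with miR-330 on the CPM scale. Prg4, which codes for lubricin, had 6 UMIs in sham, 23 in UAC and 429 in UAC + miR-330, or 0.665, 3.85 and 72.9 CPM, with intervals of 0.244 to 1.45, 2.44 to 5.77 and 66.2 to 80.1. It rose by 4.21 on the log2 scale with miR-330, and the 3 intervals are apart, although it reaches the minimum of 100 UMIs only through the UAC + miR-330 library. In the other clusters Prg4 stood at 1.49, 3.68 and 3.45 CPM, and the cluster held 5.56%, 6.72% and 57.7% of all its UMIs. The sum of the other clusters showed no such rise. Of 10 tested articular surface and synovial genes Prg4 was the only 1 called with miR-330 on this scale (median 0.28), while 4 were higher and 0 lower with deposited means and 1 higher and 1 lower after either centring. Abi3bp, a matrix gene of superficial cells, stood at 6.76, 20.2 and 24.5 CPM and rose by 1.57 from sham to UAC.

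Some growth factor and receptor genes were called, where 7.98% and 12.6% of all tested genes were called in the 2 comparisons. FGF genes, 14 tested, gave 3 higher and 0 lower in UAC against sham, then 2 higher and 1 lower with miR-330. TGF-beta and BMP genes, 37 tested, gave 4 and 0, then 3 and 2. IGF genes gave 1 and 0 of 10, then 1 and 1 of 11, and Wnt genes 4 and 0 of 25, then 2 and 1 of 24. Their UAC counts became 0, 1, 1 and 2 higher once centred on the median, and 4, 9, 1 and 8 with deposited means. Fgfr3, a receptor that slows growth plate chondrocytes, stood at 6.21, 7.69 and 29.2 CPM, with a log2 ratio of 1.91 with miR-330. It reaches the UMI minimum in that comparison only through the UAC + miR-330 library, so this ratio is given as a value only. Thbs1, a matrix protein that activates TGF-beta and blocks vessels, stood at 19.7, 24.1 and 111 CPM and rose by 2.20. Igfbp5, which binds insulin-like growth factors, stood at 164, 152 and 313 CPM and rose by 1.04. None of the 3 was called between UAC and sham. Igfbp4, a second binding protein, stood at 6.43, 17.7 and 5.61 CPM, with log2 ratios of 1.46 and -1.65. Igfbp4 reaches the UMI minimum only through the UAC library, which both its ratios share, so they are given as values only. Ptn, the pleiotrophin gene of young cartilage, stood at 883, 1669 and 763 CPM, with 0.92 and -1.13. In the Wnt list Lgr4, a receptor that strengthens Wnt signals, stood at 24.9, 39.1 and 61.5 CPM and rose in both steps, by 0.65 and 0.65. Neither rise was called within span bins, nor the first once centred on the median of all genes. Of the angiogenic and anti-angiogenic factors, which include Ptn, Thbs1 and Timp3, 5 were higher and 1 lower of 20 tested in UAC against sham (median 0.28; 3 and 1 within span bins), and 8 higher and 4 lower of 19 with miR-330 (median 0.35; 6 and 4 within span bins).

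**Figure D2:**
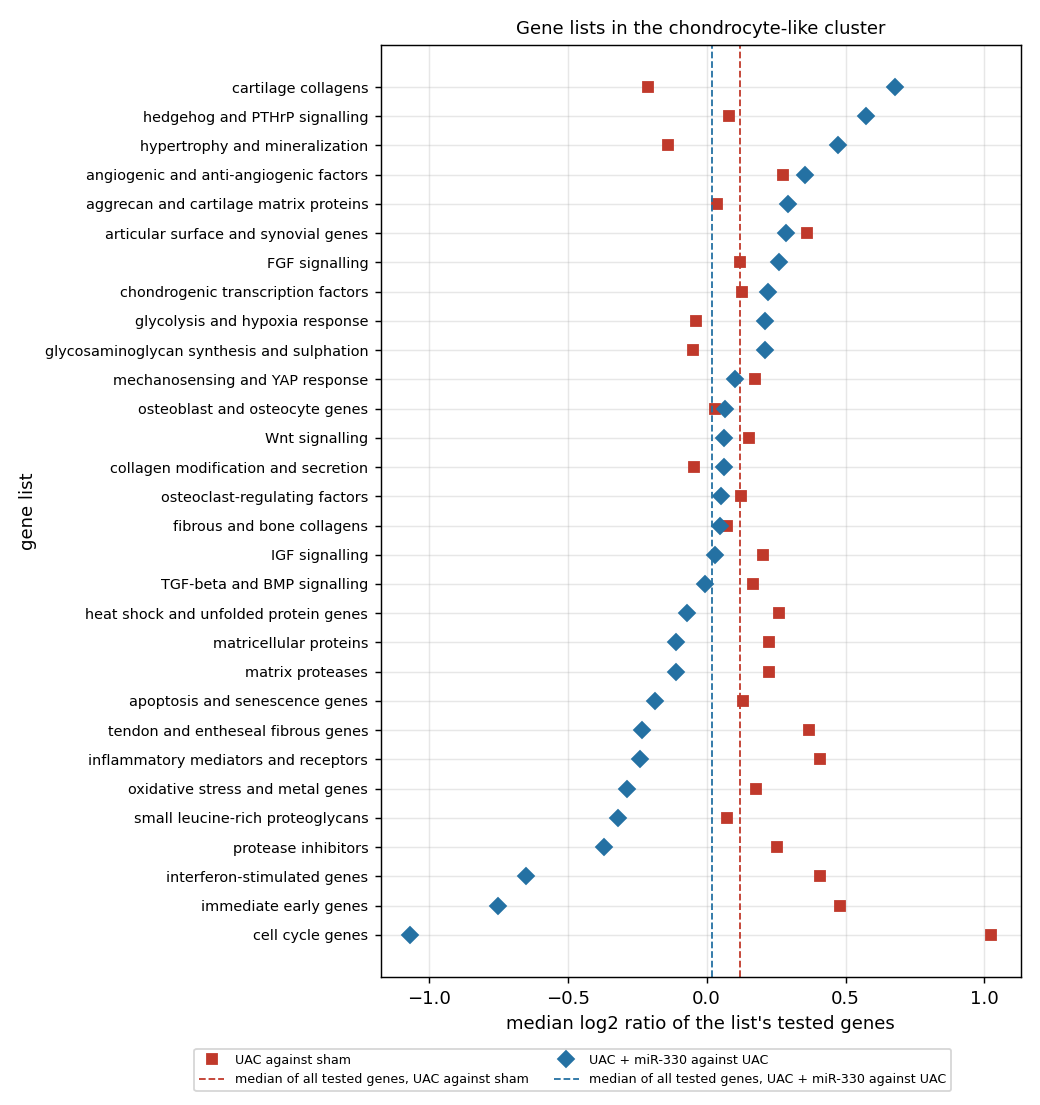
Median log2 ratio of the tested genes of each functional list in the chondrocyte-like cluster, squares for UAC against sham, diamonds for UAC + miR-330 against UAC, 1 library per group, with dashed lines at the medians of all tested genes, 0.12 and 0.02. Cartilage collagens have the highest median with miR-330, 0.68, and cell cycle genes the lowest, -1.07. Both comparisons share the UAC library, through which alone some cell cycle genes reach the UMI minimum.

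Proteases and their inhibitors changed gene by gene. Mmp9, the gelatinase, stood at 11.5, 19.6 and 2.72 CPM, with log2 ratios of 0.76 and -2.81, but it stood at 69.0, 94.6 and 89.3 CPM in the other clusters. Its second ratio is given as a value only, because Mmp9 reaches the UMI minimum there only through the UAC library. Mmp23, a membrane-bound protease, stood at 29.0, 33.1 and 14.8 CPM and fell by 1.16 with miR-330, while Adamts6, of the family that cuts matrix, stood at 52.7, 35.1 and 71.7 CPM and rose by 1.03. Timp3, the inhibitor bound to matrix, stood at 108, 167 and 253 CPM and rose in both steps, by 0.63 and 0.60, calls that were lost after either centring. Of 26 tested matrix proteases 5 were higher and 0 lower in UAC against sham (median 0.23; 4 and 2 after either centring, 8 and 0 with deposited means), and 5 were higher and 5 lower with miR-330 (median -0.11; 9 and 2 with deposited means, 3 and 5 within span bins). Of 11 tested inhibitors 4 were higher and 0 lower in UAC (median 0.25; 2 and 0 within span bins, 5 and 0 with deposited means). With miR-330 1 was higher and 3 lower (median -0.37; 2 and 2 with deposited means, 0 and 2 within span bins).

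Cell cycle genes had the largest median change of all functional lists, up in UAC and down with miR-330. Some of them were tested only through the UAC library, so the rank is a description only. Cdc20, which starts chromosome separation, stood at 11.8, 38.3 and 6.80 CPM, with log2 ratios of 1.70 and -2.48. Stmn1, which frees tubulin in dividing cells, stood at 92.5, 188 and 71.4 CPM, with 1.03 and -1.40, and Hmgb2, a chromatin protein of dividing cells, at 154, 274 and 93.1 CPM, with 0.83 and -1.55. In these 3 genes UAC was the highest library. Cenpf, a kinetochore protein, stood at 18.3, 91.3 and 73.1 CPM, a rise of 2.32 in UAC that was kept with miR-330, so the genes did not all fall back.

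Of 30 tested cell cycle genes 20 were higher and 0 lower in UAC against sham, with a median of 1.02, and of 27 tested with miR-330 0 were higher and 17 lower, with a median of -1.07. The split held under every scaling. Some of these genes reach the UMI minimum only through the UAC library, which both comparisons share, so the counts and medians rest partly on them. Between UAC + miR-330 and sham, without that library, 24 were tested, 7 of them higher and 6 lower. In the other clusters the medians of the same genes were -0.20 and 0.06. Summed, the list stood at 777, 1420 and 739 CPM, led by Hmgb2 in each library, which was 3.76%, 7.61% and 3.31% of the level in the highest other cluster. Neutrophil markers in the cluster moved the same way, with medians of 1.91 and -2.34. Whether dividing chondrocytes or cells or RNA of another type carried the UMIs of the cell cycle genes was not tested.

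The promoters of the cell cycle genes called higher in UAC were searched for motifs. RefSeq (GRCr8) holds a promoter of 300 bases, 250 before and 50 after the start, for 14 of the 20 genes that were higher in UAC. The motifs were CCAAT and TTTGAA, on both strands, and matches to the 2 can overlap by 1 base. CCAAT was in 13 of the 14 (92.9%), against 37.7% of all 27457 promoters, and TTTGAA in 9 (64.3%), against 18.1%. Other motifs, TGTGGT and AACAAT, were searched on both strands in the 7 promoters found for the 11 hypertrophy genes that were higher with miR-330. Each was in 1 (14.3%), Runx2 and Ibsp, against 16.9% and 11.6% of all. Because the motifs differ, these promoters are no comparison for the cell cycle set. Cell cycle genes that were not called were not searched, so the shares do not bear on the change in UAC. A match describes the letters only. The 3 printed here are those of cell cycle genes with values given above that hold both motifs, with the motifs of either strand in capitals, at chr5:137255750-137256049 (minus strand), chr13:103760837-103761136 (minus) and chr16:37723901-37724200 (minus).
Cdc20: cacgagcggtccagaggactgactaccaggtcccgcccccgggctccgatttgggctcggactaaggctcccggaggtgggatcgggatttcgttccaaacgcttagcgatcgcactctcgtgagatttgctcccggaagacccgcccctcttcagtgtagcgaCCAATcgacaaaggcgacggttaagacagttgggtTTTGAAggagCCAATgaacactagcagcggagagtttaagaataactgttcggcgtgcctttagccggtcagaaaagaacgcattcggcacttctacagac
Cenpf: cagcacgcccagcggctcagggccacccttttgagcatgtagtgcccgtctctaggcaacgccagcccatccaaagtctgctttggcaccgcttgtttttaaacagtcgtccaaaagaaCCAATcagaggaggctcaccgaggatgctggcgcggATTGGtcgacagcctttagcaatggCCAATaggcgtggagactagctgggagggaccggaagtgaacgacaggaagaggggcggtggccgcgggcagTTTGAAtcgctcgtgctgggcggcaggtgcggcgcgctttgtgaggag
Hmgb2: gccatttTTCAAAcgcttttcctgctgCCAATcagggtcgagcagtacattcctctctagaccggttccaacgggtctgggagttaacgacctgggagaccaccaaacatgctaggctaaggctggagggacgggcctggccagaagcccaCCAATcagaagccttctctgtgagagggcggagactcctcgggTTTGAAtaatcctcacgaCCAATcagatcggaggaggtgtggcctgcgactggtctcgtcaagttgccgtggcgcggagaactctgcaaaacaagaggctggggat

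A part of the immediate early genes was higher in UAC and more of them were lower with miR-330. Jund, a partner of Fos, stood at 1137, 1127 and 669 CPM and fell by 0.75 with miR-330, a call lost with deposited means or span bins. Dusp1, which switches off stress kinases, stood at 750.0, 1147 and 599.8 CPM, with log2 ratios of 0.61 and -0.94. Atf3, a stress transcription factor, stood at 277, 416 and 209 CPM, with 0.59 and -0.99. Fos itself stood at 819, 1256 and 1264 CPM, a rise in UAC that was kept. The rises of Dusp1, Atf3 and Fos in UAC were not called once centred on the median of all genes. Of 33 tested immediate early genes 12 were higher and 0 lower in UAC against sham (median 0.48), or 6 and 0 after centring and 19 and 0 with deposited means, and 1 was higher and 20 lower with miR-330 (median -0.75; 1 and 15 with deposited means). In the other clusters the medians were 0.43 and -0.23, so the pattern was not limited to the cluster. Neutrophil markers in the cluster also moved this way, with medians of 1.91 and -2.34. How far dissociation of the tissue switched the immediate early genes on was not tested.

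The metallothionein gene Mt1, which binds zinc, stood at 380.3, 754 and 266 CPM, with log2 ratios of 0.99 and -1.50. Of 28 tested oxidative stress and metal genes 3 were higher and 0 lower in UAC (median 0.18; 7 and 0 with deposited means), and 1 was higher and 5 lower with miR-330 (median -0.29; 3 and 3 with deposited means). Gadd45a, a growth arrest gene, stood at 15.2, 38.1 and 16.5 CPM, with 1.33 and -1.21. Of glycolysis and hypoxia genes, 37 tested, 1 was higher and 0 lower in UAC (median -0.04; 4 and 0 with deposited means) and 4 higher and 1 lower with miR-330 (median 0.21; 9 and 0 with deposited means, 2 and 0 within span bins). Of all tested genes 12.6% were called with miR-330, close to the share of this list. Among its genes Pkm, an enzyme that ends glycolysis, stood at 61.1, 74.2 and 178 CPM and rose by 1.26 with miR-330.

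Inflammatory genes were called in both directions. Cxcl1, a chemokine that draws neutrophils, stood at 9.09, 55.5 and 6.63 CPM, with log2 ratios of 2.60 and -3.05. Cxcl1 reaches the UMI minimum only through the UAC library, which both its ratios share, so they are given as values only. Il17d, a cytokine of the interleukin-17 family, stood at 102, 61.2 and 85.1 CPM, a fall of 0.73 in UAC that was not called with deposited means. Nfkbia, the inhibitor that NF-kappaB itself induces, stood at 220.4, 365 and 191 CPM, with 0.73 and -0.93. Of 33 tested inflammatory genes 12 were higher and 2 lower in UAC against sham (median 0.41), a split close to that of all genes called there, 89.7% of them higher. Of the 33, 1 was higher and 11 lower with miR-330 (median -0.24), a direction that deposited means turn round to 5 higher and 4 lower. In UAC 8 were higher and 2 lower after centring on the median of all genes, and 17 and 1 with deposited means. Neutrophil markers in the cluster moved the same way and further, with medians of 1.91 and -2.34 and sums of 1278, 5214 and 923 CPM, and whether neutrophil RNA carried part of the inflammatory change was not tested. Of 11 tested interferon-stimulated genes 4 were higher and 1 lower in UAC (median 0.41; 6 and 1 with deposited means), and of 8 tested with miR-330 0 were higher and 5 lower (median -0.65), or 0 and 2 with deposited means and within span bins.

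Some enriched genes outside the lists were called as well. Pimreg, a gene of mitosis, had 29, 102 and 16 UMIs, or 3.22, 17.1 and 2.72 CPM, with log2 ratios of 2.39 and -2.61. Fxyd6, which tunes the sodium pump, had 37, 117 and 33 UMIs, or 4.10, 19.6 and 5.61 CPM, with 2.24 and -1.79. Crabp1, which binds retinoic acid, stood at 27.3, 101 and 52.3 CPM, with 1.89 and -0.95. Each of these was highest in UAC, and Pimreg and Fxyd6 reach the minimum of 100 UMIs only through that library, which both ratios share, so their rank among all genes is not read. Rrad, a small GTPase that curbs calcium channels, stood at 45.5, 44.1 and 9.01 CPM and fell by 2.28 with miR-330. Ptprz1, a phosphatase receptor for pleiotrophin, stood at 20.5, 13.4 and 40.3 CPM, lowest in UAC (not called against sham with deposited means), and rose by 1.58, whereas its ligand gene Ptn fell.

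Of the 3 clusters, that of sham held most of the endothelial RNA. Emcn, a marker of venous vessels, had 158, 0 and 0 UMIs, so its level was at least 34.9-fold lower in UAC than in sham, taking 3 UMIs as the floor. Plvap, which spans the pores of vessel walls, stood at 16.4, 1.34 and 1.02 CPM, a fall of 3.53 in UAC. Emcn and Plvap reach the UMI minimum only through the sham library, where they are high. The fold of Emcn and the fall of Plvap are therefore given as values only. Summed, 9 endothelial markers stood at 71.4, 9.20 and 8.84 CPM, led by Emcn in sham and Egfl7 in the others, and Cdh5, Emcn, Kdr and Tek were at 0 in both UAC libraries. In the other clusters the sums were 31.2, 29.3 and 37.7 CPM. Whether sham vessels were clustered here and those of the UAC libraries elsewhere was not tested.

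Neutrophil markers moved with the UAC library. Of 9 tested 8 were higher and 0 lower in UAC against sham (median 1.91), and 0 higher and 9 lower with miR-330 (median -2.34). Their sum of 1278, 5214 and 923 CPM was led by S100a9, S100a9 and S100a8, and was 0.276%, 1.11% and 0.228% of the sum in the highest neutrophil-rich cluster. Whether these UMIs came from neutrophils or free RNA was not tested. Macrophage markers summed to 89.6, 135 and 85.6 CPM, led by Lyz2, with Cd163 and Marco at 0, and osteoclast markers to 207, 300.5 and 174.5 CPM, led by Ctsk, with Atp6v0d2, Calcr, Dcstamp and Ocstamp at 0. B-cell markers summed to 405, 384 and 268 CPM, led by Ebf1, which stromal cells also use. Skeletal muscle markers, led by Tnni2, summed to 133, 33.6 and 91.6 CPM, and the fibre genes Acta1, Myl1 and Tnnc2 were at 0 in all libraries.

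**Figure D3:**
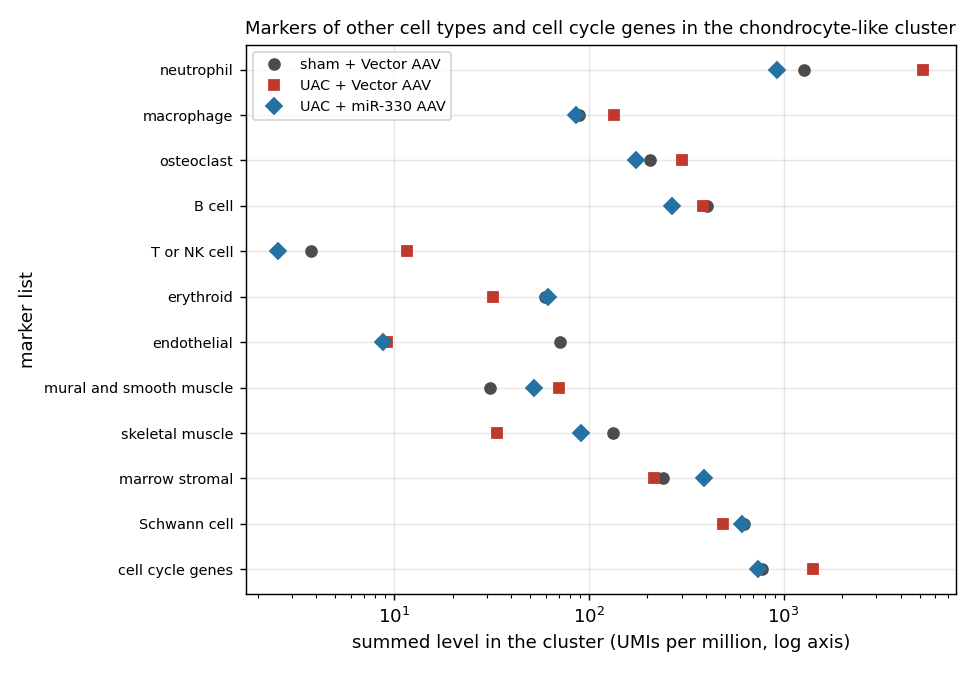
Summed levels in the chondrocyte-like cluster, in CPM (log axis), of markers of 11 other cell types and of the cell cycle genes, 1 point for each of the 3 libraries. Neutrophil markers and cell cycle genes are highest in UAC, at 5214 and 1420 CPM, and endothelial markers are highest in sham, at 71.4 CPM.

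Gene span, the genomic length from start to end in RefSeq, went with the ratios. From spans of up to 5 kb through 20, 50 and 100 kb to longer genes, the median log2 ratios of UAC against sham were -0.01, 0.03, 0.15, 0.23 and 0.23, and those of UAC + miR-330 against UAC were -0.19, -0.11, 0.05, 0.14 and 0.28. In the other clusters they ran from -0.18 to 0.06 and from -0.17 to 0.41, so longer genes were higher there too. Of 1302 genes longer than 100 kb 232 were higher and 18 lower with miR-330, and of 798 of up to 5 kb 16 were higher and 118 lower. Among the genes above, Col11a1, Trps1, Mef2c and Runx2 span 193129, 226489, 162908 and 328971 bases, and Ihh, Ibsp and Prg4 6218, 12746 and 17402. Ihh, Ibsp and Prg4 lie in the bin from 5 to 20 kb, where 61 of 2170 tested genes were higher and 174 lower with miR-330. Whether the amount of unspliced RNA differs between the libraries was not tested.

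**Figure D4:**
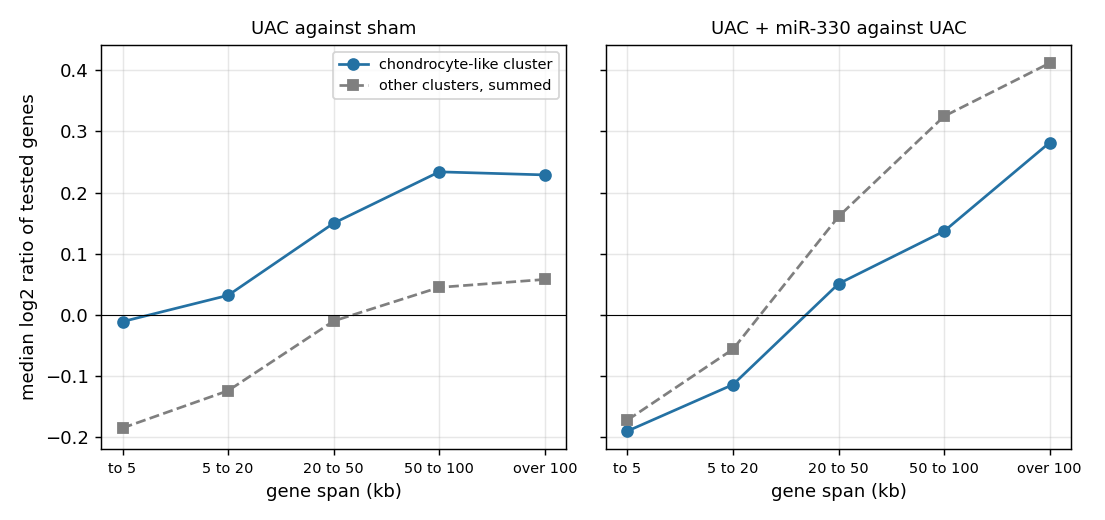
Median log2 ratio of tested genes by gene span (kb) in the chondrocyte-like cluster (circles) and in the sum of the other clusters (squares), with UAC against sham on the left and UAC + miR-330 against UAC on the right, 1 library per group. In the cluster the median runs from -0.01 to 0.23 in the first comparison and from -0.19 to 0.28 in the second.

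The mature strands of the rat miR-330 hairpin are shown because miR-330 AAV is what distinguishes the 2 UAC libraries. They are from RefSeq (GRCr8), at chr1:87961227-87961248 and chr1:87961266-87961288 on the plus strand, with the seed (bases 2 to 8) in capitals. The 2 seeds differ, and the libraries do not measure mature miRNAs.
rno-miR-330-5p: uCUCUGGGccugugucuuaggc
rno-miR-330-3p: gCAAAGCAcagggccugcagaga

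Genes that the study follows differed widely in level. Epor, the erythropoietin receptor, had 2, 1 and 1 UMIs, too few to compare. Il1b, the inflammatory cytokine, had 48, 45 and 17 UMIs, or 5.32, 7.52 and 2.89 CPM. Its intervals in UAC and UAC + miR-330, 5.49 to 10.1 and 1.68 to 4.62, are apart, but it is below the minimum of 100 UMIs and was not tested there. Fgfr1, a growth factor receptor, stood at 145, 144 and 225 CPM and rose by 0.64 with miR-330 (not called within span bins), and Ctgf, a matrix-bound growth factor, stood at 1930.4, 1601 and 1379.7 CPM with no call. Mmp3, a stromelysin, had 4, 24 and 30 UMIs, below the minimum for a call. The mechanically gated channel genes Piezo1 and Trpv4 stood at 118, 156 and 144 CPM and at 121, 96.7 and 121 CPM. Neither was called on the CPM scale, though Piezo1 was higher in UAC than in sham with deposited means.

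Taken as values of 3 libraries, the UAC cluster had lower Ihh, Alpl and Foxa2, higher Mmp13 and Spp1, and more cell cycle, immediate early and neutrophil RNA than sham, with Aspn, Thy1 and Eln also higher. The UAC + miR-330 cluster had more Col9a3, Col10a1, Sox9 and Ibsp than UAC, and less Aspn. Prg4 was higher there too, but it reaches the UMI minimum only through that library. Composition of the cluster and change within its cells were not told apart.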

How the data were processed

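Dissociated condyles of rats (cartilage with the bone under it) were profiled by single-cell RNA sequencing, and 1 deposited table per library was read. Per the submitters' notes the data passed through Cell Ranger 7.0, STAR and Seurat 4.0.1 with GRCh38 and mm10, although the identifiers are rat Ensembl genes, so the build is not known. The deposited Mean_Counts columns hold a signal per gene and cluster, normalized by the authors. The authors' log2 fold changes and adjusted p-values compare clusters with other clusters of the same library and were not used.

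Each mean divided by the smallest positive mean of its column gave the UMIs, of which 100% were whole within a tolerance of 0.001 (farthest 1.04e-07). The libraries held 77668015, 92629658 and 97255383 UMIs. At this depth 3 UMIs in the cluster were 0.333, 0.502 and 0.510 CPM. No count model was fitted to the recovered UMIs: with a single library per condition there is no spread between replicates. Ratios had 0.5 UMI added. Names on several identifiers (101, 106 and 116) were summed. Scripts used Python 3.11.15, numpy 2.4.6, pandas 2.3.3 and scipy 1.17.1, and were tested on simulated data.

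The members and the 46 lists were chosen with earlier results of these data known. Of 967 list genes 928 matched, 9 of them through synonyms, and 39 (among them Pecam1, Pthlh, Shh, Sost and Col6a3) were not analysed here, nor was Tnf. Genes named are the cluster's markers, the study's genes, the 20 most abundant, the 12 largest changes each way of enriched genes, and per list the 3 with most UMIs and up to 2 called each way; the text gives a selection made after the values were seen, as was the choice of motifs. Alternatives were 3 other scales, UMI minimums of 20 and 500, a fold of 2, 5 UMIs added and enriched genes only. Centring within bins of gene span was added after the data were seen. RefSeq GRCr8 served for names, spans and sequences. Doublets and ambient RNA cannot be treated in cluster sums.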

Additional observations from a re-analysis of the deposited data

How the results depend on the processing

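No paired analysis was possible because each group is 1 pooled library. The share of the cluster was 11.8%, 6.55% and 6.14% without haemoglobin, immunoglobulin and mitochondrial genes, and its UMIs over the summed deposited means were 1986, 1150 and 961.

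The number of called genes depended on the settings. Between UAC and sham, 688 became 1533 with deposited means, 177 at a minimum of 500 UMIs, 197 at a fold of 2 and 194 among enriched genes. Between UAC + miR-330 and UAC, 1041 became 1738, 370, 277 and 310. Between UAC + miR-330 and sham, 1646 became 4094, 695, 323 and 408, and 927 after centring within span bins.

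The prevailing direction of some lists turned round. Between UAC + miR-330 and UAC, deposited means left 1 fibroblast marker, 4 heat shock genes and 9 inflammatory genes called, mostly higher. Between UAC + miR-330 and sham, deposited means gave 1 small leucine-rich proteoglycan, 8 immediate early and 3 interferon-stimulated genes. There span bins gave 4 glycosaminoglycan, 11 protease, 1 hedgehog and 7 immediate early genes, enriched genes alone 1 immediate early gene, and centring 5 inflammatory genes. Lists with a margin of 1 call turned as well, among them cell cycle genes between UAC + miR-330 and sham (7 higher and 6 lower, to 5 and 10 after centring), IGF genes there (2 and 1, to 1 and 2) and glycosaminoglycan genes between UAC and sham (0 and 1, to 2 and 1 with deposited means). The others were chondrocyte, osteoblast and hedgehog genes between UAC and sham, tendon genes between UAC + miR-330 and sham, and mechanosensing, apoptosis and osteoclast-regulating genes between UAC + miR-330 and UAC. No call of a gene named in the report turned to the other direction. Small changes without a call can change sign with deposited means, as that of Acan between UAC and sham does.

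Each group is 1 library, so differences between rats, dissociations and injections are inside every ratio. The cluster mixes cell types, and its sums give no cell numbers. Cluster borders were drawn separately per library and were not matched. Sex and age are not given, and the wild-type rats of the 3 groups cannot be told apart within a pool.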
